A study of Mus musculus with 8 samples.

Results

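RNA of sarcomere and myofiber genes was compared between muscle stem cells (MuSCs) of mice fed a vitamin A-free (VA-free) diet and of mice fed control chow. The set has 39 genes, chosen by gene symbol for their known place in the contractile apparatus and its supply. It holds 6 myosin heavy chains, 6 light chain genes with their kinase, 3 myosin binding proteins, 2 sarcomeric actins, 7 troponins, 8 genes of the giant scaffolds, Z-disc and M-band, 4 genes of calcium handling and 3 genes of energy and oxygen supply. All 39 were found among the 36047 genes with a transcript in the deposited tables, and all 39 were among the 17997 genes that passed the expression filter and were tested.

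A sarcomere is the repeating unit of a muscle fiber, in which myosin thick filaments pull on actin thin filaments. Calcium released from the sarcoplasmic reticulum binds troponin on the thin filament and permits this pull, while titin and nebulin set filament length and the Z-disc and M-band anchor the filaments. Most of these proteins come in fast, slow and embryonic or perinatal forms encoded by separate genes. Quiescent MuSCs are mononucleated cells without sarcomeres that lie beside the fiber, and sarcomeric genes are known as genes of differentiation and fusion.

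Male Pax7CreERT2-Rosa26 nTnG mice aged 5 to 6 months ate a VA-free diet (3 mice) or normal chow (2 mice) for 8 weeks. The paper describes the VA-free diet as a custom product and names no matched control diet. Lack of vitamin A and any other difference between the foods therefore cannot be told apart. In all mice of both diets 5 daily tamoxifen injections switched the nuclear reporter of Pax7-expressing cells and their descendants to GFP, and 15000 to 17000 nGFP-positive cells per mouse were sorted from gastrocnemius and quadriceps. The lysate of a mouse was divided over separate columns, which gave technical replicates called A and B. The 8 libraries are named by mouse and replicate, those of VA-free mouse 3 and of both control mice as pairs and those of VA-free mice 1 (1B) and 2 (2A) alone. Because the marker is inducible and nuclear, a sorted event reports where Pax7 had been active and not what the cell was at the time of sorting.

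Estimated counts summed to 45021285 to 88650428 in the VA-free libraries and to 44831232 to 53029345 in the control libraries. Control library 2A stood apart, with Spearman correlations of 0.9278 to 0.9464 with the other control libraries. Those correlated at 0.9733 to 0.9779 with one another. With 2B, from the same mouse, 2A correlated at 0.9365, while 2B correlated at 0.9442 to 0.9505 with the VA-free libraries. These 2 libraries of control mouse 2 were thus less alike than 2B and any VA-free library. All 12 MuSC markers, Pax7 and Myf5 among them, were detected in every library. Of these 11 were higher on the VA-free diet, where 18.9% of all tested genes were higher and 22.5% lower. Their summed level was 5658 to 6222 TPM (transcript abundance scaled by length and library) against 1646 to 2917. With the trend of fold change with gene length removed, as described further on, 10 of the 12 were higher. Pax7 went from a log2 fold change of 0.76 to 0.14 (adjusted p = 0.579 from edgeR) and lost its call. Markers of other cells were mostly lower on the VA-free diet. This held for 8 of 8 endothelial markers (76.8 to 113 TPM against 379 to 1283) and 6 of 6 Schwann cell markers (29.6 to 35.3 against 176 to 456). It also held for 5 of 6 tenocyte markers (45.2 to 63.2 against 325 to 634) and 4 of 5 erythroid markers (106 to 853 against 3056 to 5485). Of 7 macrophage markers 3 were lower and 4 not past the threshold (36.0 to 183 against 207 to 860). Lyz2 made up most of the macrophage sum on the control diet, at 14.3 to 95.3 TPM against 155 to 690 TPM. Of 8 fibro-adipogenic progenitor markers 5 were lower and 1 higher (5833 to 5957 against 2507 to 4743), and of 7 smooth muscle and pericyte markers 4 were lower and 1 higher (996 to 1366 against 1278 to 1517). Col3a1, the higher progenitor marker, made up most of the progenitor sum on the VA-free diet, at 5039 to 5266 TPM against 496 to 2340 TPM. Acta2, not past the threshold, made up most of the smooth muscle sum, at 695 to 1088 TPM against 769 to 1004 TPM. With the length trend removed 4 tenocyte markers were lower, and 6 progenitor markers were lower and 2 higher. The other counts for these cells did not change in that fit. Control library 2A set the high end of the control sum for macrophage markers. It set the low end for every other marker list, MuSC markers included. Only Cdh19, a Schwann cell marker, was listed at 0 in a library, VA-free 1B. The part of these other cells in the results on sarcomeric genes was not tested, and in bulk RNA fewer cells of a type and less RNA per cell cannot be told apart.

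The sarcomeric genes together took 0.0908% to 0.127% of the counts of a VA-free library and 0.10% to 0.126% of a control library, so their summed share overlapped between the diets. Of the 39 genes, 17 were lower and 6 higher on the VA-free diet (edgeR quasi-likelihood test, Benjamini-Hochberg adjusted p under 0.05), where 22.5% of all tested genes were lower and 18.9% higher. The lower genes were 6 of 7 troponins, 4 myosin light chains, Tcap, Myoz1 and Myom1 of the Z-disc and M-band, Pvalb and Casq1 of calcium handling, and Ckm and Mb. The higher genes were the heavy chains Myh3 and Myh8, the light chain kinase Mylk2, the myosin binding protein Mybpc1, the Z-disc protein Actn2 and the calcium release channel Ryr1. The median log2 fold change over the 39 genes was -0.43, and 0.00 over all tested genes. With every library taken by itself, 14 of the genes lay lower in all 4 VA-free libraries than in all 4 control libraries, as 21.4% of all genes did, and 5 lay higher, as 19.9% did.

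**Figure D1:**
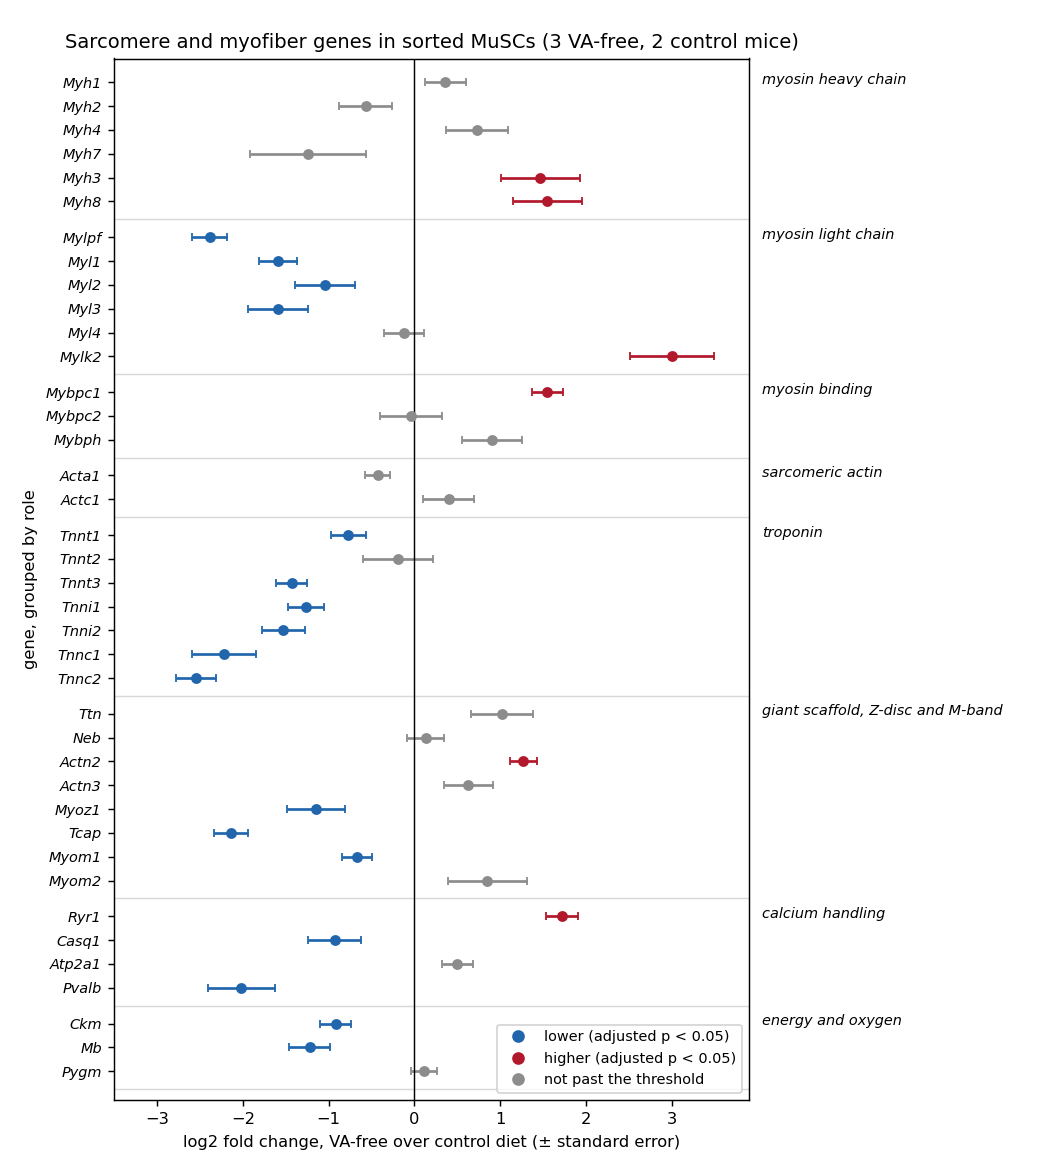
Log2 fold change of each of the 39 genes on the VA-free over the control diet (horizontal axis), with its standard error as a bar, for 3 against 2 mice. The troponins and light chains sit on the left, with Tnnc2 at -2.55 and Mylpf at -2.39, and Mylk2 sits farthest to the right at 3.00.

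By isoform class, 8 of 14 fast genes were lower and none higher, with a median log2 fold change of -1.04, and 5 of 7 slow genes were lower and 1 (Mybpc1) higher, with a median of -1.24. None of the 5 embryonic or perinatal genes was lower and 2 (Myh3 and Myh8) were higher, with a median of 0.40. The 13 genes shared by fiber types went both ways, 4 lower and 3 higher, with a median of 0.13. The trend of fold change with gene length was also removed, as described further on. In that fit 6 of 14 fast and 1 of 7 slow genes were lower, where 17.5% of all genes were. The medians of the 2 classes then lay close together, at -0.75 for fast and -0.64 for slow genes. The difference between the classes was not tested. Values below are given per library in CPM (counts scaled by library size, TMM-normalized), first for VA-free 1B, 2A, 3A, 3B, then for control 1A, 1B, 2A, 2B. Log2 fold changes, standard errors (SE) and adjusted p-values come from edgeR on summed counts per mouse.

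Troponin is the calcium switch of the thin filament, made of a calcium-binding subunit (C), an inhibitory subunit (I) and a tropomyosin-binding subunit (T), and 6 of its 7 genes fell. Tnnc2, the fast troponin C gene (chromosome 2 of GRCm38, 164777161 to 164779967), was at 11.6, 10.9, 8.10 and 7.97 CPM on the VA-free diet and at 45.4, 48.8, 121 and 33.8 CPM on the control diet. The mean over mice was 10.3 ± 1.94 CPM (SD, n = 3) on the first diet and 60.5 ± 16.8 CPM (SD, n = 2) on the second, and the log2 fold change was -2.55 (SE 0.23, adjusted p = 0.000418 from edgeR). The highest VA-free library lay far below the lowest control library, and library 2A was the highest of all. Of the 31-base words in Tnnc2 transcripts, 59.0% also occur in transcripts of Ube2c, an overlapping gene on the other strand that encodes an enzyme of mitosis, and the library kit keeps no strand, so reads of the pair can be mistaken for each other. Ube2c itself was at 15.3 to 19.3 TPM on the VA-free diet and 16.0 to 32.5 TPM on the control diet (log2 fold change -0.90, SE 0.26, adjusted p = 0.0296), a smaller fall than that of Tnnc2.

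Tnnc1, the slow and cardiac troponin C gene, was less abundant, at 0.992, 0.537, 0.595 and 1.19 CPM against 5.55, 1.86, 3.64 and 4.16 CPM. Its log2 fold change was -2.22 (SE 0.37, adjusted p = 0.00357), close to that of its fast counterpart. The fast inhibitory subunit gene Tnni2 was at 8.73, 7.13, 5.53 and 4.65 CPM against 22.3, 19.3, 17.9 and 21.7 CPM, a log2 fold change of -1.53 (SE 0.25, adjusted p = 0.00311). The slow Tnni1 was at 5.36, 4.08, 5.55 and 4.75 CPM against 10.8, 10.2, 17.2 and 9.56 CPM, a log2 fold change of -1.26 (SE 0.21, adjusted p = 0.0038). Neither inhibitory subunit gene overlapped between the diets in any library.

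Among the tropomyosin-binding subunits, the fast Tnnt3 was at 15.4, 16.9, 11.7 and 11.2 CPM against 41.5, 33.4, 54.3 and 30.7 CPM, a log2 fold change of -1.43 (SE 0.18, adjusted p = 0.00128). The slow Tnnt1 was at 7.78, 9.67, 8.59 and 7.63 CPM against 15.2, 17.3, 11.5 and 14.4 CPM, a log2 fold change of -0.77 (SE 0.20, adjusted p = 0.0205). Both were lower in every VA-free library than in any control library, though Tnnt1 lost its call in 9 of 21 alternatives, among them leaving out control library 2B, control mouse 1 or VA-free mouse 1 or 3. Tnnt2, the form of the heart and of embryonic skeletal muscle, was the exception, at 9.12, 4.92, 3.46 and 3.60 CPM against 4.96, 6.23, 9.09 and 7.27 CPM. The diets overlapped and the log2 fold change of -0.19 (SE 0.41, adjusted p = 0.747) was not past the threshold. Tnnt3 is heavily spliced, and its estimates were spread over 7 transcripts with at least 10% of its TPM in some mouse, of which Tnnt3-201, Tnnt3-216 and Tnnt3-224 were lower in all 3 VA-free mice than in both control mice and the other 4 overlapped.

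Myosin light chains brace the lever arm of the myosin head, and the fast and slow fiber forms were both lower. Mylpf, the fast regulatory light chain gene (chromosome 7, 127208890 to 127214298), was at 7.65, 6.03, 5.20 and 5.35 CPM against 32.7, 31.9, 37.2 and 32.8 CPM. Its control libraries were tightly grouped, also 2A, and its log2 fold change was -2.39 (SE 0.20, adjusted p = 0.000349). The gene shares no 31-base word with another gene. Its 3 main transcripts, Mylpf-201, Mylpf-205 and Mylpf-206, were each lower in all VA-free mice, Mylpf-201 at 13.7, 9.17 and 7.34 TPM against 39.9 and 41.3 TPM.

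Myl1, the fast essential light chain gene, was at 24.6, 23.1, 15.0 and 15.2 CPM against 60.5, 52.7, 92.5 and 51.5 CPM, a log2 fold change of -1.59 (SE 0.22, adjusted p = 0.00163). A pseudogene, Mylf-ps, holds 14.5% of its 31-base words but had 0 to 4 counts per library. The slow regulatory Myl2 was at 1.21, 0.931, 1.34 and 1.31 CPM against 2.68, 2.22, 1.56 and 3.02 CPM, and its log2 fold change of -1.04 (SE 0.35) lay at the threshold (adjusted p = 0.0498). The slow essential Myl3 was at 1.60, 1.75, 1.70 and 1.87 CPM against 7.54, 5.78, 2.25 and 4.92 CPM, a log2 fold change of -1.59 (SE 0.35, adjusted p = 0.0101). For both slow genes control library 2A lay closest to the VA-free libraries. Myl2 lost its call in 15 of 20 alternatives, among them leaving out any 1 mouse, and Myl3 lost it without control library 2B. The embryonic and atrial Myl4 was at 9.26, 6.46, 8.41 and 9.0 CPM against 7.06, 8.71, 10.7 and 9.82 CPM, with overlap between the diets (log2 fold change -0.12, SE 0.23, adjusted p = 0.719). The embryonic members of the troponin T and light chain families were thus the ones not past the threshold in each family.

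The kinase of the regulatory light chain went the other way. Mylk2, the skeletal muscle myosin light chain kinase gene (chromosome 2, 152911352 to 152923068), was at 28.8, 19.7, 53.7 and 63.6 CPM on the VA-free diet and at 2.68, 5.08, 1.44 and 8.74 CPM on the control diet. The mean over mice was 36.3 ± 20.8 CPM (SD, n = 3) against 4.52 ± 0.841 CPM (SD, n = 2), and the log2 fold change was 3.00 (SE 0.49, adjusted p = 0.00326). Every VA-free library lay above every control library, although the VA-free mice differed among themselves, with mouse 3 at 59.6 CPM and mouse 2 at 19.8 CPM. The size of the rise depended on the control 2 library kept, since edgeR gave a log2 fold change of 2.53 without control library 2A (adjusted p = 0.0105), 3.73 without 2B (adjusted p = 0.0196) and 4.06 with 1 library per mouse (adjusted p = 0.00857).

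The first 250 bases upstream of the RefSeq transcription start are shown for the 2 genes with the largest falls and the 2 with the largest rises that have an entry (Mylk2 has none, and Myh8 and Mybpc1 differ only past the second decimal), since E-boxes, the sites bound by MyoD and its relatives, are common before muscle genes. They are read 5′ to 3′ on the strand of the gene from the GRCm38.p6 assembly, in lower case with each CANNTG E-box in capitals. Tnnc2 is at chr2:164779735-164779984 on the minus strand, Mylpf at chr7:127211358-127211607 on the plus strand, Myh8 at chr11:67276874-67277123 on the plus strand and Ryr1 at chr7:29125152-29125401 on the minus strand.
Tnnc2: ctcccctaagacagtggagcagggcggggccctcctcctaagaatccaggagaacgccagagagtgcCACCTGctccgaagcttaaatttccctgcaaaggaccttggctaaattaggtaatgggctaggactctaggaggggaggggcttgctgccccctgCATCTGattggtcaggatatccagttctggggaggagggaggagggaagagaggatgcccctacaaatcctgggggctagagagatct
Mylpf: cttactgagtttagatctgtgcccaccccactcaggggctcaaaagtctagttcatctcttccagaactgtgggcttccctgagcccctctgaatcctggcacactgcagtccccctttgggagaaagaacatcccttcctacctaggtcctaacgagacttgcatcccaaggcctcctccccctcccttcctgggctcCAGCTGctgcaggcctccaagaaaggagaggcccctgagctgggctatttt
Myh8: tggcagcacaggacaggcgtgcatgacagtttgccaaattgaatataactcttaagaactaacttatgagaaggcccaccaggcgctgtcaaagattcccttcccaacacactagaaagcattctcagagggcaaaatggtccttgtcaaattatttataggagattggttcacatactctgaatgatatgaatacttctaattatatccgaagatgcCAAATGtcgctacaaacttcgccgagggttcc
Ryr1: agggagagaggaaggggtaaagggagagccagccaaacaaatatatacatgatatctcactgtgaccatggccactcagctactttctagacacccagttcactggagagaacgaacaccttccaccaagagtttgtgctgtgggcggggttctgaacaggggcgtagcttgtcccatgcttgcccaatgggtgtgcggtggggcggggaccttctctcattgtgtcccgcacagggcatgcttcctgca
Tnnc2 has 2 E-boxes in this stretch, Mylpf 1, of the form CAGCTG, Myh8 1, and Ryr1 none. Over the 38 promoter entries of 31 of the genes, 84.2% hold CANNTG on either strand, against 66.2% of 32851 entries of all genes. The narrower CAGCTG, itself a CANNTG, is in 42.1% of them against 13.0% of all, and a MEF2 box in 13.2% against 2.92%. Among the lower genes 9 of 18 entries hold CAGCTG, among the higher genes 1 of 5 and among the others 6 of 15. The MEF2 box was in 1 of 18 entries of lower genes, 1 of 5 of higher genes and 3 of 15 of the others, too few to read a direction from. Genes with several starts have several entries, so these are not independent, and a match describes letters and shows no binding.

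Myosin heavy chains are the motors of the thick filament, and here the developmental forms moved and the adult forms did not pass the test. Myh3, the embryonic heavy chain gene (chromosome 11, 67078300 to 67102291), was at 21.8, 8.59, 12.6 and 17.1 CPM against 2.86, 4.53, 4.89 and 10 CPM, a log2 fold change of 1.47 (SE 0.46, adjusted p = 0.0395). Myh8, the perinatal form in the same cluster (67277124 to 67308634), was at 12.8, 5.53, 6.17 and 8.73 CPM against 2.62, 2.52, 0.375 and 6.14 CPM, a log2 fold change of 1.55 (SE 0.40, adjusted p = 0.0189). In both genes VA-free 1B was highest and control 2B reached into the VA-free range. Without control library 2A the log2 fold changes were 1.16 for Myh3 (adjusted p = 0.112) and 1.00 for Myh8 (adjusted p = 0.136), neither past the threshold in edgeR. Myh3 also lost its call without control library 1A, control mouse 1, VA-free mouse 1 or VA-free mouse 3, and Myh8 without control library 2B or control mouse 1. The fold of Myh8 was larger without control library 2B, at 2.49 (adjusted p = 0.09 from edgeR), and was 1.4 without control mouse 1, while that of Myh3 was 1.06 to 1.48 in these fits. The size of both rises thus depended on which control 2 library was kept.

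Of the adult heavy chains none passed. Myh4, of the fastest fibers, was at 7.73, 8.33, 7.97 and 8.25 CPM against 2.86, 2.81, 7.74 and 6.66 CPM, with the 2 control mice apart (log2 fold change 0.73, SE 0.36, adjusted p = 0.155). Myh7, of slow fibers and the heart, was at 1.86, 0.483, 1.92 and 0.865 CPM against 2.32, 0.181, 6.30 and 3.40 CPM. Its technical replicates differed widely within both control mice (log2 fold change -1.24, SE 0.68, adjusted p = 0.192). Myh1 and Myh2, of fast fibers, had log2 fold changes of 0.36 (SE 0.24, adjusted p = 0.282) and -0.57 (SE 0.31, adjusted p = 0.194). Heavy chain genes are near copies of each other. Of their 31-base words, 37.9% of Myh1, 32.8% of Myh2, 30.4% of Myh4, 22.9% of Myh7, 18.6% of Myh8 and 11.1% of Myh3 also occur in other genes, mostly other heavy chains, so the split of reads between them is uncertain.

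Scaled per length, Myh1 was the most abundant heavy chain in most libraries, with 29.4% to 39.1% of the TPM of the 6 genes on the VA-free diet and 30.4% to 42.4% on the control diet. Myh3 and Myh8 together made up 49.9%, 33.1% and 40.1% in the 3 VA-free mice and 22.6% and 22.3% in the 2 control mice. By library the shares overlapped, since control 1B (33.5%) and 2B (34.2%) lay just above VA-free 2A (33.1%) and control 1A (15.8%) and 2A (9.69%) far below. The fast forms held 45.3% to 63.1% in VA-free mice and 57.1% to 65.9% in control mice, with overlap. Slow Myh7 ranged from 0.806% (control 1B) to 34.9% (control 2A), the widest spread of the 6 genes within 1 diet.

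**Figure D2:**
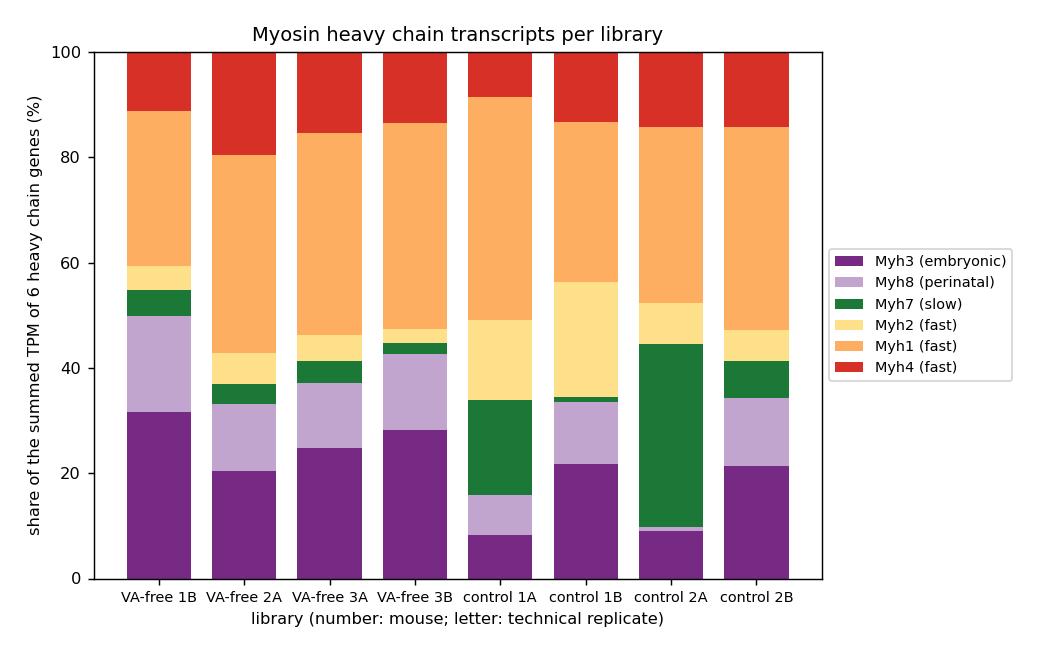
Share of each gene in the summed TPM of 6 myosin heavy chain genes (vertical axis, percent), stacked for each of the 8 libraries. The purple embryonic and perinatal segments reach 33.1% to 49.9% in VA-free libraries and 9.69% to 34.2% in control libraries. The slow Myh7 segment is widest in control 2A, where most of it comes from a short retained-intron transcript.

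Myosin binding proteins lie along the thick filament and tune its pull. Mybpc1, the slow form (chromosome 10, 88518279 to 88605152), was at 84.7, 107, 90.8 and 87.6 CPM against 20.6, 33.1, 33.5 and 43.5 CPM, a log2 fold change of 1.55 (SE 0.18, adjusted p = 0.000895). Its 4 main transcripts were each higher in all VA-free mice than in both control mice, the most abundant, Mybpc1-201, at 28.5, 35.8 and 26.9 TPM against 5.72 and 8.30 TPM. Mybpc1 was the only slow fiber gene of the 7 that rose, and besides Myh7 the only one with an effective length above 2000 bases. The fast Mybpc2 was at 3.73, 2.31, 2.62 and 1.49 CPM against 3.04, 2.45, 0.437 and 4.99 CPM, with no difference past the threshold (log2 fold change -0.04, SE 0.36, adjusted p = 0.946). Mybph was at 4.23 to 8.20 CPM against 0.707 to 6.44 CPM (log2 fold change 0.90, SE 0.35, adjusted p = 0.0771), and 46.3% of its 31-base words lie also in Adora1, an overlapping gene on the other strand that encodes an adenosine receptor.

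The sarcomeric actins were the most abundant of the 39 genes, with means over the libraries of 252 TPM for Acta1 and 209 TPM for Actc1. Acta1, the adult skeletal form, was at 216, 164, 191 and 185 CPM against 228, 241, 294 and 274 CPM. All VA-free libraries lay below all control libraries, but by a small step, and the log2 fold change of -0.43 (SE 0.15) missed the threshold narrowly (adjusted p = 0.0585). In TPM the diets overlapped, at 216 to 300 against 222 to 294. Actc1, the cardiac and embryonic form, was at 240, 121, 247 and 225 CPM against 161, 154, 74.5 and 211 CPM, with overlap (log2 fold change 0.40, SE 0.30, adjusted p = 0.321).

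The scaffold, Z-disc and M-band genes split. Tcap, which encodes telethonin, the cap on titin at the Z-disc (chromosome 11, 98383811 to 98384953), was at 5.69, 5.64, 4.87 and 4.81 CPM against 26.0, 11.7, 40 and 19.4 CPM, a log2 fold change of -2.14 (SE 0.20, adjusted p = 0.000481). Actn2, the α-actinin that crosslinks thin filaments there (chromosome 13, 12269426 to 12340760), was at 20.3, 20.8, 18.8 and 17.3 CPM against 8.17, 8.14, 6.47 and 10.1 CPM, a log2 fold change of 1.27 (SE 0.16, adjusted p = 0.00124). These neighbors at the Z-disc thus moved in opposite directions, each without overlap of libraries. Actn3, the α-actinin of fast fibers, was more abundant, at 73.9, 60.9, 87.6 and 90.8 CPM against 29.7, 36.4, 73.1 and 59.8 CPM, and was not past the threshold (log2 fold change 0.63, SE 0.29, adjusted p = 0.123).

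Myoz1, a Z-disc protein of fast fibers that binds calcineurin, was at 1.80, 2.63, 1.12 and 1.57 CPM against 3.59, 4.90, 2.10 and 6.53 CPM (log2 fold change -1.15, SE 0.34, adjusted p = 0.0337). Myom1, which encodes myomesin of the M-band, was at 6.85, 6.37, 4.71 and 8.19 CPM against 11, 10.3, 5.95 and 14.7 CPM (log2 fold change -0.67, SE 0.18, adjusted p = 0.0223). In both, control 2A lay within the VA-free range, and both lost the call without control library 2B. Left-out samples changed both calls often, as Myoz1 lost it in 11 of 20 alternatives, among them each control mouse and VA-free mice 1 and 3, and Myom1 in 10 of 20, among them each VA-free mouse and both limma fits on TPM, where its sign changed (0.09 and 0.10). Myom2 was at 2.60 to 5.13 CPM against 0.771 to 4.36 CPM and not past the threshold (log2 fold change 0.85, SE 0.46, adjusted p = 0.187).

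Titin, the spring that links Z-disc and M-band, is encoded by Ttn, which was at 62.3, 28.1, 31.3 and 28.0 CPM against 21.8, 15.4, 16.7 and 25.6 CPM. All VA-free libraries lay above all control libraries, and the log2 fold change of 1.02 (SE 0.36) did not pass the threshold (adjusted p = 0.0629). Ttn-215, an annotated transcript of 2159 bases, took 48.2% to 68.1% of the TPM of Ttn per mouse, and Ttn-202, of 16891 bases, 3.98% to 12.9%. Neb, the nebulin gene, was at 15.9 to 25.1 CPM against 12.5 to 29.3 CPM (log2 fold change 0.13, SE 0.22, adjusted p = 0.693), and 65.1% to 81.3% of its TPM lay on Neb-204, a processed transcript of 1000 bases. By estimated counts, on which the fold changes rest, Ttn-215 held 8.64% to 18.3% and Ttn-202 7.39% to 21.3% of Ttn per mouse, and Neb-204 held 21.5% to 40.9% of Neb. The short transcripts thus took most of the TPM of these genes but not most of their counts.

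Calcium handling genes also split. Ryr1, the calcium release channel of the sarcoplasmic reticulum (chromosome 7, 29003344 to 29125179), was at 35.7, 29.4, 27.7 and 31.6 CPM against 5.99, 10.9, 9.55 and 12.7 CPM, a log2 fold change of 1.72 (SE 0.19, adjusted p = 0.000689). Every VA-free library was above every control library by a wide gap. The long coding transcript Ryr1-201 was at 2.70, 2.02 and 1.74 TPM in the VA-free mice and 0.294 and 0.00992 TPM in the control mice, while Ryr1-208, of nearly the same length, was at 0.111, 0.108 and 0.509 TPM against 0.249 and 0.903 TPM. Between control libraries 1A and 1B, of the same mouse, the estimates switched between these transcripts. Ryr1-201 was at 1.26e-06 TPM in 1A and 0.589 TPM in 1B, and Ryr1-208 at 0.497 and 0.000218 TPM. The split of reads between them is thus uncertain, and the rise is shown for the gene as a whole.

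Pvalb, which encodes parvalbumin, the calcium buffer of fast fibers (chromosome 15, 78191114 to 78206400), was at 4.57, 2.85, 1.85 and 2.27 CPM against 16.3, 15.4, 6.28 and 13.3 CPM, a log2 fold change of -2.02 (SE 0.39, adjusted p = 0.00613). Casq1, the calcium store protein calsequestrin of fast fibers, was at 4.20, 3.69, 2.44 and 2.64 CPM against 6.82, 3.56, 8.16 and 8.18 CPM, with control 1B inside the VA-free range (log2 fold change -0.93, SE 0.31, adjusted p = 0.0487). Casq1 lost its call in 12 of 20 alternatives, among them leaving out any VA-free mouse, control mouse 2 or control library 1A or 2B, and Pvalb lost its call without control library 2B. Atp2a1, the fast calcium pump SERCA1, was at 92.0 to 130 CPM against 54.2 to 111 CPM and not past the threshold (log2 fold change 0.50, SE 0.18, adjusted p = 0.0568). Rabep2, an overlapping gene on the other strand, holds 19.6% of its 31-base words. The channel, the buffer and the pump of the same calcium cycle thus had 1 rise, 1 fall and 1 value not past the threshold.

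Of the energy and oxygen genes, Ckm, the muscle creatine kinase, was at 17.2, 15.4, 15.5 and 15.8 CPM against 24.4, 46.3, 14.4 and 37.6 CPM, a log2 fold change of -0.92 (SE 0.18, adjusted p = 0.00655), with control 2A the lowest library of all and the call lost without control 2B. Mb, the oxygen store myoglobin, was at 9.97, 6.37, 9.05 and 11.9 CPM against 21.6, 17.7, 19.5 and 25.8 CPM, a log2 fold change of -1.22 (SE 0.24, adjusted p = 0.00696), without overlap. Pygm, the muscle glycogen phosphorylase, was at 40.9 to 49.2 CPM against 23.7 to 51.2 CPM and not past the threshold (log2 fold change 0.11, SE 0.15, adjusted p = 0.597).

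**Figure D3:**
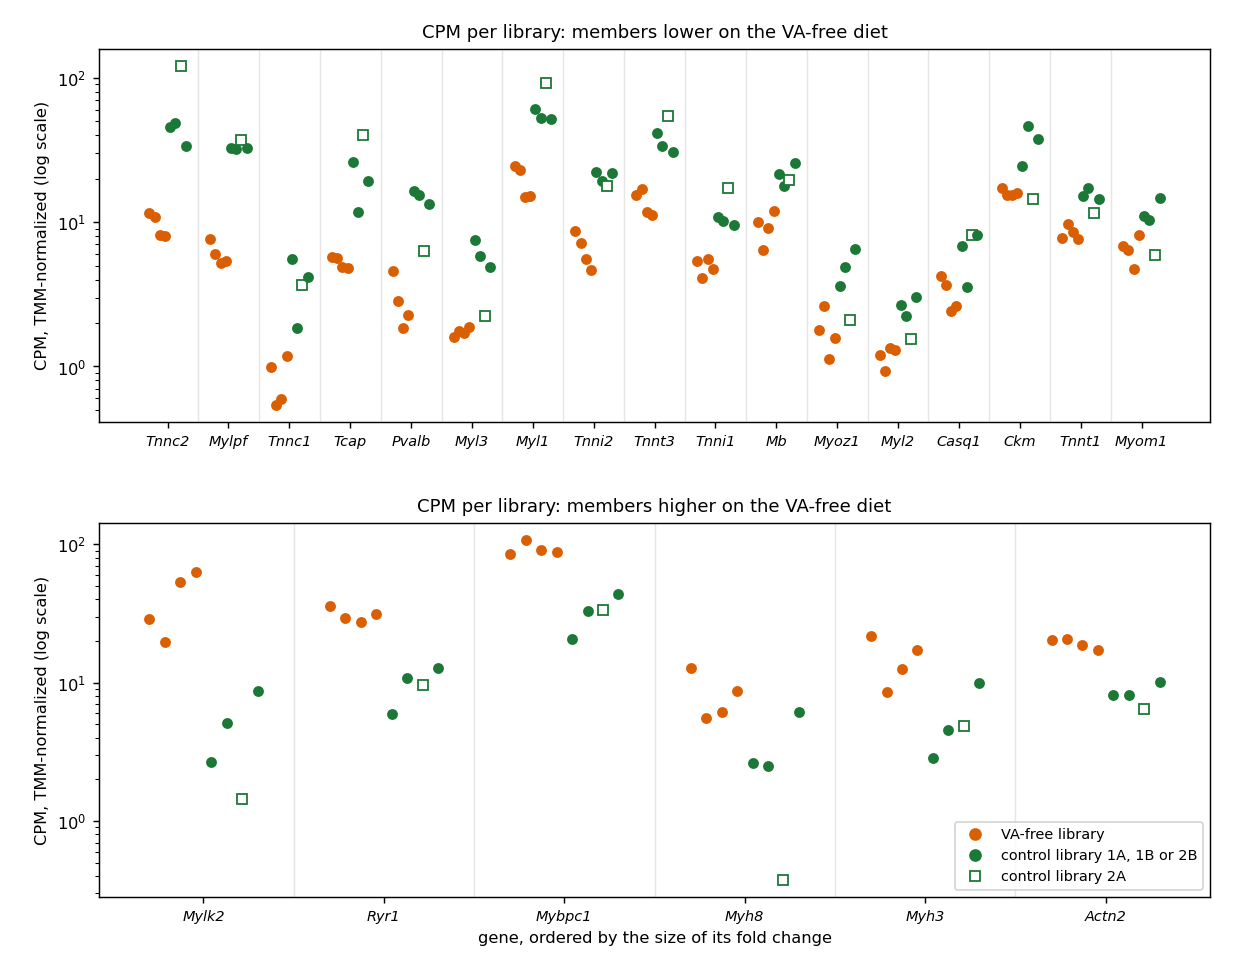
TMM-normalized CPM (vertical axes, log scale) in each of the 8 libraries for the 17 genes lower (top) and the 6 genes higher (bottom) on the VA-free diet. Control library 2A, drawn as an open square, lies among the other control libraries for Mylpf and near the VA-free libraries for Myl2, Myoz1, Ckm and Myom1.

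Technical replicates of a mouse show the spread of the measurement itself. The root mean square difference of log2(TPM + 0.1) over the 39 genes was 0.334 between VA-free 3A and 3B, 0.820 between control 1A and 1B and 1.34 between control 2A and 2B, and over all tested genes it was 0.621, 0.922 and 1.27. The sarcomeric genes were thus about as far apart between 2A and 2B as other genes were. The widest gaps were 3.42 for Myh7 between control 1A and 1B and -3.29 for Mybpc2 between control 2A and 2B.

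Ratios of partner isoforms were taken within each mouse from TPM (pseudocount 0.1), which removes any change common to both genes, for 13 pairs. As 3 mice against 2 cannot reach 0.05 in an exact permutation test, they are described only. Myh4, Tnnt3 and Myl1 each serve in more than 1 pair, so the pairs are not independent. How often other pairs of genes separate in this way was not measured. In 6 pairs the ratio was lower in all VA-free mice than in both control mice, in 1 pair it was higher and in 6 pairs the mice overlapped. In 3 pairs it was lower in every VA-free library than in every control library, and these 3 set a fast or adult form against a slow or embryonic one in light chains and troponin T. The log2 ratio of fast Mylpf to slow Myl2 was 2.38, 2.55 and 1.86 in the VA-free mice and 3.59 and 3.76 in the control mice, a difference of means of -1.41. For Myl1 over embryonic Myl4 it was 1.73, 2.16 and 1.03 against 3.13 and 3.02, a difference of -1.44. For Tnnt3 over embryonic Tnnt2 it was 1.09, 2.06 and 1.93 against 2.90 and 2.60, a difference of -1.06. In the latter 2 pairs the adult gene was past the threshold by itself and the embryonic gene was not.

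Other pairs separated by mouse but not by library. Tnnt3 over slow Tnnt1 was 0.89, 0.63 and 0.43 against 0.99 and 1.46, Acta1 over Actc1 was -0.12, 0.47 and -0.30 against 0.61 and 0.95, and Mybpc2 over Mybpc1 was -4.65, -5.63 and -5.66 against -3.32 and -3.67. Myh4 over slow Myh7 was the only pair higher on the VA-free diet, at 1.13, 2.15 and 2.07 against -0.13 and -0.50. The effective lengths of Myh4 and Myh7 were 5926 and 2907 bases, the most unequal of the 13 pairs. Longer genes tended to be higher on the VA-free diet, as described further on. The part of length in the ratios was not tested. Without control library 2A, where Myh7 was high, the difference of Myh4 over Myh7 fell from 2.10 to 1.38. Leaving out that library also brought Tnnt3 over Tnnt1 from -0.58 to -0.30 and Acta1 over Actc1 from -0.76 to -0.49. The fast to slow ratios of troponin I and C (Tnni2 over Tnni1, a difference of -0.22, and Tnnc2 over Tnnc1, -0.33), of Myl1 over Myl3 (-0.16) and of Actn3 over Actn2 (-0.54) overlapped between the diets. So did Myh4 over embryonic Myh3 (-0.57) and over perinatal Myh8 (-0.55). The 13 pairs did not share a direction from fast to slow.

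**Figure D4:**
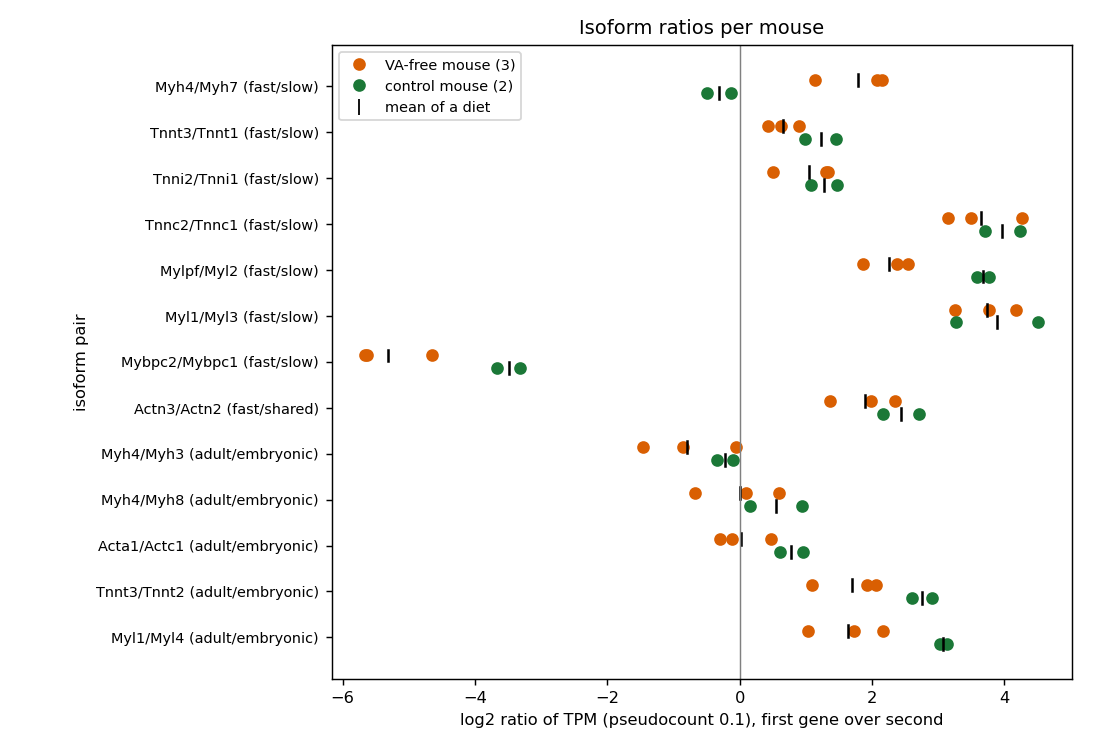
Log2 ratio of the TPM of 2 partner genes (horizontal axis, pseudocount 0.1) in each mouse for 13 isoform pairs, with the mean of each diet as a vertical bar. Mylpf/Myl2, Tnnt3/Tnnt2 and Myl1/Myl4 lie to the left in all 3 VA-free mice, and Myh4/Myh7 lies to the right.

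The direction of the sarcomeric genes went with their length. Effective length of a gene is here the mean over its transcripts, weighted by their TPM in these same libraries. Short transcripts with much TPM lower it, so that Neb was at 2280 bases. Myom1 was at 2192 bases, though its transcripts Myom1-202 and Myom1-203 have 5648 and 5316. The 17 lower genes had effective lengths of 560 to 2192 bases (median 866) and the 6 higher genes of 2644 to 12491 bases (median 4441). Over the 39 genes, log2 fold change and log2 effective length had a Pearson r of 0.77 and a Spearman rho of 0.81, given as a description since the genes share libraries and families, and over all tested genes r was 0.24 and rho 0.38. Of the 14 genes under 1000 bases, 13 were lower and none higher, where 40.3% of all genes of that length were lower and 2.15% higher, and their median log2 fold change was -1.56 against -0.70 for all such genes. Of the 7 genes of 1000 to 2000 bases, 3 were lower and none higher (29.5% and 7.91% of all such genes), with medians of -0.43 and -0.27. Of the 18 genes of at least 2000 bases, 1 (Myom1) was lower and 6 higher (12.2% and 31.4% of all such genes), with medians of 0.68 and 0.34.

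**Figure D5:**
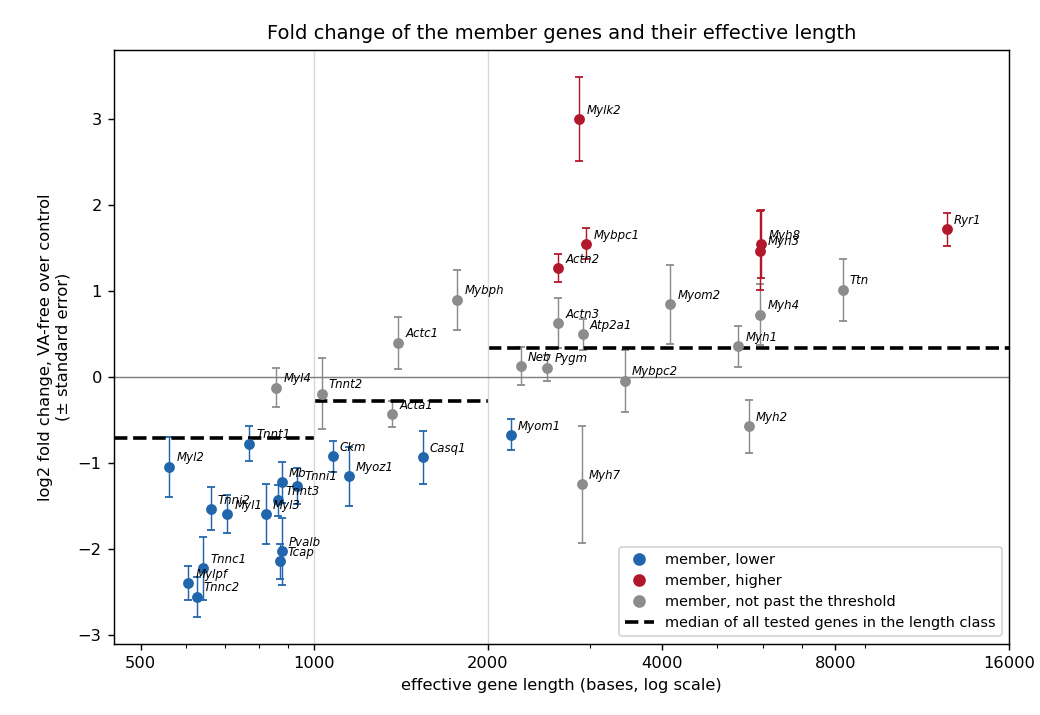
Log2 fold change with its standard error (vertical axis) against effective gene length in bases (horizontal axis, log scale) for the 39 genes, with the median of all tested genes in 3 length classes as dashed lines. Troponins and light chains lie at the short end, 13 of 14 genes under 1000 bases called lower, and Ryr1, the longest at 12491 bases, lies at 1.72.

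When the trend of each mouse with effective length was removed in the fit, 9 of the 39 genes were lower, where 17.5% of all genes were, and 4 were higher, where 12.0% were. Of the lower calls 8 were shared with the fit without this step, and Myh2 was called anew at -1.21 (adjusted p = 0.0215 from edgeR). Most of the 8 were smaller in size than before, with log2 fold changes of -1.82 for Tnnc2, -1.65 for Mylpf, -1.48 for Tnnc1, -1.48 for Tcap, -1.36 for Pvalb, -0.85 for Myl1 and -0.76 for Tnnt3, and Myom1 was at -0.79. The higher calls that remained were Mylk2 at 2.66, Mybpc1 at 1.19, Ryr1 at 1.07 and Actn2 at 1.00, as log2 fold changes. The calls of Myl2, Myl3, Tnnt1, Tnni1, Tnni2, Myoz1, Casq1, Ckm, Mb, Myh3 and Myh8 were lost. Of the slow class 1 gene was then lower (Tnnc1) and 1 higher (Mybpc1), of the fast class 6 lower and none higher, and of the embryonic class none either way. The median over the 39 genes was -0.26 and that of all genes -0.03, and the r with length among the 39 was 0.51. The paper reports that RNA samples were selected for high integrity and enough material, and describes no difference in library protocol between the diets. The part of transcript length, library chemistry and RNA quality in the length trend was not tested.

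The scale moved the balance of directions as well. Tested with limma on log2(TPM + 1), 12 of the 39 genes were lower, where 14.7% of all genes were, and 12 were higher, where 32.2% were. The median over all genes was 0.19 on that scale and 0.09 over the 39 genes. All 12 lower genes and 6 of the 12 higher genes were those called on counts, and the added ones were Myh4, Mybph, Ttn, Actn3, Atp2a1 and Pygm. By TPM, 9 genes lay lower in every VA-free library, as 13.0% of all genes did, and 11 higher, as 33.4% did. Mylpf, Myl1, Tnnt3, Tnnc1, Tnnc2 and Tcap were lower and Mylk2, Mybpc1, Actn2 and Ryr1 higher past the threshold in every alternative that tested them, 6 and 4 genes.

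Other muscle genes outside the set gave calls in both directions, to be read against the 22.5% of all genes that were lower and the 18.9% that were higher. Of 17 genes of other filament proteins 15 were tested, and 5 were lower and 3 higher, among them the tropomyosins Tpm1 (log2 fold change -1.27, SE 0.11, adjusted p = 0.000409) and Tpm2 (-2.18, SE 0.17, adjusted p = 0.000318), the non-muscle myosin Myh14 (2.05, SE 0.16, adjusted p = 0.000309) and the thin filament cap Tmod1 (0.94, SE 0.22, adjusted p = 0.0125). Of 17 genes of the Z-disc and costamere 6 were lower and 3 higher. Their most abundant genes past the threshold were the desmin gene Des (1.19, adjusted p = 0.00178) and the filamin gene Flnc (3.15, adjusted p = 0.000139), which rose, and Pdlim7 (-0.49, adjusted p = 0.022) and Pdlim3 (-0.52, adjusted p = 0.0214), which fell. Of 15 triad and calcium genes 3 were lower and 5 higher, with the slow calcium pump Atp2a2 at 1.35, the ryanodine receptor Ryr3 at 1.88, the sarcalumenin gene Srl at 0.82 and the cardiac calsequestrin Casq2 at -3.42. The channel genes Ryr1 and Ryr3 thus both rose and the calsequestrin genes Casq1 and Casq2 both fell, Casq1 only just past the threshold. With the length trend removed Casq1 was at -0.74 and lost its call (adjusted p = 0.113 from edgeR), while Ryr1, Ryr3 and Casq2 kept theirs.

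Sarcomere assembly factors were lower for 3 of 11 genes and higher for none, the small heat shock proteins Hspb1 at -1.15, Cryab at -0.69 and Hspb7 at -1.17, a share near that of all genes. With the length trend removed Hspb1 was at -0.45 (adjusted p = 0.359 from edgeR) and Cryab at 0.04 (adjusted p = 0.906), so both calls were lost. Muscle energy enzymes were lower for 8 of 15 genes, with Ckb at -0.72, Eno3 at -1.05 and the glucose transporter Slc2a4 at -1.49, and higher for 1, the phosphorylase kinase subunit Phka1 at 1.49. Of 14 myogenic transcription factors 7 were higher, with Prox1 at 1.17, Myod1 at 0.82, Myf5 at 1.35 and Mef2d at 1.20, and 1 was lower. These values are log2 fold changes past the threshold in edgeR. With the length trend removed the lower and higher calls were 4 and 2 for other filament genes, 6 and 3 for Z-disc and costamere genes, 2 and 4 for triad and calcium genes, 2 and 0 for assembly factors, 6 and 1 for energy enzymes and 2 and 6 for myogenic factors. Of the genes named here, Tmod1, Pdlim7, Pdlim3, Srl and Ckb also lost their calls in that fit. The differences between the lists were not tested.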

How the data were processed

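Smart-Seq v4 cDNA and Nextera XT libraries, which keep no strand, were sequenced as 75 bp reads. The authors quantified transcripts with kallisto (0.46.2 per the submitters' processing notes), and the deposited tables hold estimated counts and TPM (transcript abundance scaled by length and library) for 118489 transcripts of the mouse Ensembl annotation matching GRCm38. Here 116816 transcripts were summed into 36047 genes through GENCODE M21, and 0.647% to 0.756% of counts had no gene. Estimated counts of technical replicates were summed per mouse and rounded.

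Diets (3 against 2 mice) were compared with edgeR 4.0.16 (quasi-likelihood test, TMM, filterByExpr, Benjamini-Hochberg over 17997 genes, threshold 0.05) in R 4.3.3. Limma 3.58.1 on log2(TPM + 1) or log2(TPM + 0.1), DESeq2 1.42.0 and other filters, units and samples were alternatives, 21 in all. The replicate numbers were a block in 1 of them. One alternative removed each mouse's trend with effective gene length (lowess) through an offset. The fitting was tested on simulated counts with known changes. Mice are separate animals, while A and B libraries share an animal, so their spread is technical. Shared 31-base words were counted between transcripts, and promoters came from RefSeq (GRCm38.p6).

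The 39 genes and all lists were chosen with earlier results of these data known. All 39 are accounted for. Of each other muscle list, up to 4 genes with the highest mean CPM among those past the threshold are named. Many of the genes have at least 2 transcripts that each hold 10% of the TPM in some mouse. Of these, transcripts are described only for Tnnt3, Mylpf, Mybpc1, Ttn, Neb, Ryr1 and Myh7. The library totals above limit precision for genes near 1 CPM, such as Tnnc1, Myl2 and Myh7.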

Additional observations from a re-analysis of the deposited data

Results flagged for a closer look

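Each of the 39 genes was checked within each diet for a library whose TPM stood apart from the other 3 by Dixon's gap criterion (78 groups of 4 libraries), and 5 stood apart, where chance gives about 1 in 20 groups. In control library 2A, Tnni1 was at 22.2 TPM against 14.7 to 15.7 in the other control libraries, and Pvalb was at 8.45 TPM against 22.2 to 24.7. Without this library both stayed lower on the VA-free diet past the threshold in edgeR. In VA-free 2A, Atp2a1 was at 53.0 TPM against 74.7 to 78.7 and Pygm at 35.5 TPM against 31.5 to 31.6. In VA-free 1B, Ckm was at 30.5 TPM against 25.0 to 25.6. VA-free 3A and 3B come from 1 mouse, which narrows the range of the other libraries on that diet.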

How the results depend on the processing

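The number of genes called lower (17) was 10 with a mean of at least 10 CPM, 9 with 1 library per mouse, 9 with the length trend removed and 12 with the replicate block, and from 9 to 18 when a mouse or library was left out, 9 being without control library 2B, where Myl2, Myl3, Tnnt1, Myoz1, Myom1, Casq1, Pvalb and Ckm lost the call. The number called higher (6) was 12 in limma on log2(TPM + 1) and 12 on log2(TPM + 0.1), where the median of all genes shifted by 0.19 and 0.35, 9 in DESeq2, and from 4 (without control library 2A, where Myh3 and Myh8 lost the call) to 10 (without control mouse 2), and 5 without VA-free mouse 1. The median log2 fold change (-0.43) was 0.04 at a mean of at least 10 CPM, 0.09 and 0.10 in the limma fits, -0.26 with 1 library per mouse, -0.26 with the length trend removed, and from -0.68 (without VA-free mouse 1) to -0.12 (without control mouse 2) when a mouse or library was left out. Over all tested genes, deviations of same-numbered mice from the means of their diets had r = -0.0219 and -0.00447. With 2 control mice these deviations mirror each other, so this check cannot tell whether the numbers mark a pairing. With the replicate block 12 genes were lower and 7 higher, the median was -0.44, and Myh3 (1.4, adjusted p = 0.0922 in edgeR), Myl2, Tnnt1, Myoz1, Myom1 and Casq1 lost the call. Of the 17 lower and 6 higher sarcomeric genes, Myom1 changed sign in these alternatives, to 0.09 and 0.10 in the limma fits, and none of the others did.

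Genes not past the threshold changed sign as follows. Myh1 was at -0.26 with the length trend removed. Myl4 was at 0.24 and 0.25 in the limma fits, 0.55 with the length trend removed, and at 0.02 to 0.03 without a mouse. Mybpc2 was at 0.15 and 0.24 in the limma fits, 0.73 with 1 library per mouse, 0.09 with the block and at -0.36 to 0.13 without a mouse and up to 0.70 without a library (0.05 without VA-free 3B or control 1A). Acta1 was at 0.00 and 0.00 in the limma fits. Tnnt2 was at 0.15 and 0.15 there, 0.35 with the length trend removed, 0.02 with the block and 0.04 to 0.07 without a mouse. Neb was at -0.11 with 1 library per mouse, -0.02 with the length trend removed and at -0.15 without control 2B, and from -0.08 (without control mouse 1) to 0.35 without a mouse, -0.05 being without VA-free mouse 1. Pygm was at -0.12 with the length trend removed and at -0.12 without control 2A, and from -0.06 to 0.29 without a mouse. Without control library 2A the ratio differences of Myh4/Myh7, Tnnc2/Tnnc1 and Myl1/Myl3 were 1.38, 0.26 and 0.25, and those of Tnnt3/Tnnt1, Acta1/Actc1, Myh4/Myh3, Myh4/Myh8 and Tnni2/Tnni1 were -0.30, -0.49, -0.35, -0.15 and -0.49. The causes were not tested.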
